A study of Mus musculus with 8 samples.

Results

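The fibrillar collagens and the proteins that fold, trim, crosslink and organise them were followed in the exorbital lacrimal gland (LG) of mice under calorie restriction (CR). The group held 10 genes: Col1a1, Col1a2, Col3a1, Col5a1 and Col5a2, which encode collagen chains, and Serpinh1, Pcolce, Lox, Loxl1 and Sparc, which encode proteins that act on them. They were found by symbol in the table of counts, where all 10 were present among 24552 genes, and all 10 passed the filter on low counts that left 11211 genes for testing. The group was chosen with the CR against AL results of these same libraries in view, so the values of the 10 genes are a description. Whether each passed the threshold of the whole-table fit is given as part of that description, with no p for a single gene.

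Female C57BL/6J mice of 6 to 7 months were either fed ad libitum (AL) or put on a 40% CR for 4 months, and the LGs were taken at 10 to 11 months. Restricted mice had 1 meal time a day, in the late afternoon. The question was which LG transcripts differ after a restriction that begins at the start of middle age. RNA of 4 AL and 4 CR glands was sequenced from the 3' end of transcripts, and the libraries held 12051881 to 22156511 counts under AL and 13720079 to 19310319 under CR. The study counts its LG replicates as mice. The labels do not name the mouse behind each library or its cohort, and the chow differed between cohorts, so p-values are taken over libraries. In 1 of the cohorts the chow also differed between the diets, the CR chow holding 40% more vitamins and micronutrients. A floor of 3 counts corresponded to 0.152 to 0.231 CPM in the 8 libraries, where CPM is counts per 1000000 counts of the library after scaling.

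Collagen chains are made in the endoplasmic reticulum of fibroblasts, where they are hydroxylated, wound into a helix and held by chaperones until export. Outside the cell, the end propeptides are removed, the trimmed molecules line up as fibrils, and lysyl oxidases crosslink them. In exocrine glands such as the LG, type I and type III fibrils form the stroma around acini, ducts and vessels, and type V chains are built into the same fibrils.

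Of the 5 chains, Col1a1, Col3a1 and Col5a1 were between 3.89-fold and 6.93-fold lower in CR, and no CR library reached the lowest AL library for any of them. Col5a2 was also separate, and Col1a2 overlapped. In a whole-table fit (edgeR's quasi-likelihood test), a gene was called when its Benjamini-Hochberg adjusted p was under 0.05 and its fold change at least 1.5. This called 3 of the 10 genes lower, against 0.785% of all genes tested, and 0 of the 10 higher, against 1.2%. In 5 of the 10, every CR library lay below every AL library, which held for 5.2% of all genes, and in 0 of the 10 was the order the opposite, which held for 4.58%. Since these contrasts took part in choosing the genes, nothing is read from those counts. The median log2 fold change was -1.05 over the 10 genes, -1.96 over the 5 chains and -0.88 over the other 5, and 0.01 over all genes. In whole glands, fewer collagen-producing cells, less collagen RNA per cell and other tissue in the sample cannot be told apart.

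**Figure D1:**
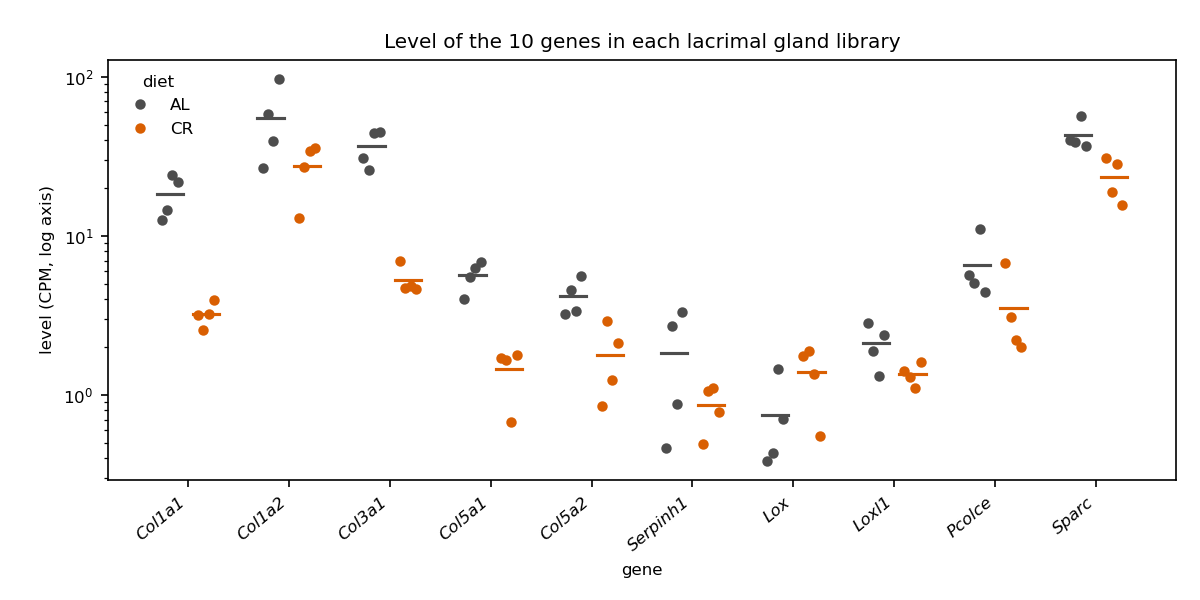
Level of each of the 10 genes in CPM (log axis) in every library, with AL and CR side by side; points are libraries and short lines are group means (n = 4 each). Col1a1, Col3a1, Col5a1, Col5a2 and Sparc have every CR point below every AL point, and Lox is the gene with a higher CR mean, 1.40 against 0.746 CPM.

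The start regions of 3 chains are shown because Col3a1 and Col5a1 were called in CR and Col1a2, the most counted chain, was not. Each runs from 250 bases before the RefSeq start to 50 bases after it, on GRCm38.p6, all on the plus strand. They are Col1a2 at chr6:4505368-4505667, Col3a1 at chr1:45311288-45311587 and Col5a1 at chr2:27886175-27886474. The Col1a2 window lies inside the gene as the GENCODE vM21 annotation places it, from chr6:4504814, so the annotations differ on its start. Capitals mark CCAAT on either strand (ATTGG when read on the plus strand) and TATAA on the gene's own strand.
Col1a2: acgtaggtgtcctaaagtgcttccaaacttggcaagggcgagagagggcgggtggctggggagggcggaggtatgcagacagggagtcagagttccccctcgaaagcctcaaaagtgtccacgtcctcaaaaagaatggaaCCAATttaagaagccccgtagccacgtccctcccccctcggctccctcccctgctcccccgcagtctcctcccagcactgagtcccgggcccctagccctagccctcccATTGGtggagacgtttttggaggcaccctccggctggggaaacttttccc
Col3a1: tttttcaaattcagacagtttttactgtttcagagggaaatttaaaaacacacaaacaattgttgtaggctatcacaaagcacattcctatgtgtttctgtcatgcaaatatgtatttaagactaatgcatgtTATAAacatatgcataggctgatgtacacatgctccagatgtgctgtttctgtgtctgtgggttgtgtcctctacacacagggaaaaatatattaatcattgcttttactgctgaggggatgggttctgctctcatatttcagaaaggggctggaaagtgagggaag
Col5a1: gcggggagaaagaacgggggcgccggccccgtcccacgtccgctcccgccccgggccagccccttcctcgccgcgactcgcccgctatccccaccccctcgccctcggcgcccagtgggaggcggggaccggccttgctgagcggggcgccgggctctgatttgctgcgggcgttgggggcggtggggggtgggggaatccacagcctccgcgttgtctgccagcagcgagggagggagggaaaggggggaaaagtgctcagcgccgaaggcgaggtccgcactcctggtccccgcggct

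CCAAT, the letters of a common promoter box, stood in the Col1a2 window 109 bases before the start and again at the start on the other strand. It was in 1 of the 6 windows that the table holds for the 10 genes, against 37.4% of 32851 promoters of the same length. TATAA stood 117 bases before the start of Col3a1, and in 17.5% of all promoters. GGGCGG, the letters of a GC box, was found on either strand in 4 of the 6 windows, against 35.7% of all promoters. CAGAC, the letters of a SMAD element, was found on either strand in 5 of the 6, against 49.6%. The 3 windows differed in base content, with 61% G and C in Col1a2, 37.7% in Col3a1 and 75% in Col5a1. A match is a run of letters and does not show binding.

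Col1a1 (gene ID 12842; GRCm38, GENCODE vM21, chr11:94936224-94953042, plus strand) encodes the alpha 1 chain of type I collagen, the main load-bearing fibril of connective tissue. Its level was 12.6, 14.7, 24.2 and 21.9 CPM in AL replicates 1 to 4 and 3.18, 2.55, 3.22 and 3.94 CPM in the CR replicates. The groups did not overlap, and the highest CR library was under the lowest AL library by a wide margin. The mean was 18.3 ± 5.59 CPM in AL and 3.22 ± 0.571 CPM in CR (SD, n = 4), a 5.67-fold lower level (log2 fold change -2.50, SE 0.26, called). Ranked by mean CPM among the 11211 genes, Col1a1 went from rank 2600 in AL to rank 7637 in CR.

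Col1a2 (gene ID 12843; chr6:4504814-4541544, plus strand) encodes the partner alpha 2 chain of type I collagen. Its level was 26.7, 58.7, 39.4 and 96.8 CPM in AL and 12.9, 27.3, 34.3 and 35.9 CPM in CR. AL replicate 4 stood highest, and AL replicate 1 lay below 3 of the 4 CR libraries, so the groups overlapped. The means were 55.4 ± 30.6 and 27.6 ± 10.5 CPM (SD, n = 4), with a log2 fold change of -1.01 (SE 0.39, not called) that was -0.59 without AL replicate 4. Col1a2 was the most counted of the 10 genes by mean CPM in both diets.

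Col3a1 (gene ID 12825; chr1:45311538-45349706, plus strand) encodes type III collagen, which forms thin fibrils together with type I. Its level was 30.7, 25.9, 44.7 and 45.0 CPM in AL and 7.00, 4.68, 4.83 and 4.61 CPM in CR. Every AL library was well above every CR library, and CR replicate 1 stood apart above the other CR libraries. The mean was 6.93-fold lower in CR, 5.28 ± 1.15 against 36.6 ± 9.73 CPM (SD, n = 4), with the lowest log2 fold change of the 10 genes (-2.79, SE 0.24, called). The rank by mean CPM went from 1272 in AL to 6204 in CR. A miRNA gene on the same strand, Gm47302, lies over a Col3a1 exon, and reads could be shared with it.

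Col5a1 (gene ID 12831; chr2:27886425-28039514, plus strand) encodes the alpha 1 chain of type V collagen, which starts fibrils and limits their width. Its level was 4.01, 5.52, 6.27 and 6.90 CPM in AL and 1.70, 1.66, 0.681 and 1.78 CPM in CR, the CR values resting on 11 to 32 counts. The groups did not overlap, and CR replicate 3 was the low library of its group. The mean was 3.89-fold lower in CR (log2 fold change -1.96, SE 0.36, called), but the call was lost without AL replicate 2 (log2 fold change -1.97), AL replicate 3 (-1.92) or CR replicate 2 (-2.02). With each of those left out, 2 of the 10 genes stayed called, Col1a1 and Col3a1. Exons of 2 noncoding genes on the other strand overlap Col5a1, and whether counting used the strand is not given in the sources used here.

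Col5a2 (gene ID 12832; chr1:45374321-45503282, minus strand) encodes the alpha 2 chain of type V collagen and lies next to Col3a1, 24615 bases away. Its level was 3.24, 4.54, 3.35 and 5.63 CPM in AL and 0.849, 2.90, 1.24 and 2.11 CPM in CR. The gap between the highest CR and the lowest AL library was small, but the groups did not overlap. The means were 4.19 ± 1.13 and 1.77 ± 0.918 CPM (SD, n = 4), and the log2 fold change of -1.23 (SE 0.41) was not called.

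The make-up of the chain reads differed between the libraries. QuantSeq makes about 1 read per transcript end, so shares are given per transcript end and not per length. The summed level of the 5 chains was 77.2 to 176.2 CPM in AL and 25.6 to 48.4 CPM in CR, without overlap. Col1a2 took 34.5, 53.7, 33.4 and 55.0% of the chain reads in AL and 50.3, 69.8, 77.5 and 74.3% in CR, so 3 of the 4 CR libraries lay above every AL library. Col3a1 took 31.7 ± 8.31% in AL and 14.9 ± 8.33% in CR, and Col1a1 took 15.7 ± 3.64% and 8.59 ± 2.64% (SD, n = 4). The type V shares were small in both diets, 4.87 ± 0.644% and 4.02 ± 2.09% for Col5a1 and 3.6 ± 0.680% and 4.47 ± 2.07% for Col5a2.

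**Figure D2:**
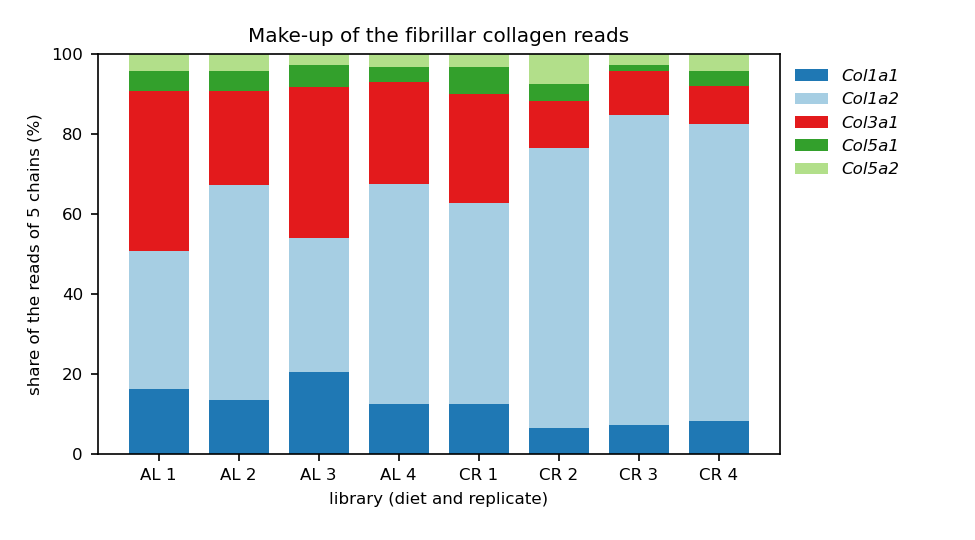
Share of the reads of the 5 collagen chains (percent, stacked to 100) that each chain took in each library. The Col1a2 share is 50.3 to 77.5% in the CR libraries and 33.4 to 55.0% in the AL libraries.

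The type I chains were not in a fixed ratio. Col1a2 had 2.12, 4.00, 1.63 and 4.43 counts per Col1a1 count in AL and 4.04, 10.7, 10.7 and 9.11 in CR. CR replicate 1 fell within the AL values, and the other CR libraries were above all of them. By contrast, Col3a1 had 2.45, 1.77, 1.85 and 2.06 counts per Col1a1 count in AL and 2.20, 1.84, 1.5 and 1.17 in CR, with overlapping groups. The Col5a1 to Col5a2 ratio was 1.22 to 1.87 in AL and 0.55 to 2.0 in CR, also overlapping.

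Serpinh1 (gene ID 12406; chr7:99345376-99353239, minus strand) encodes HSP47, the chaperone that binds the procollagen helix in the endoplasmic reticulum. Its level was 0.462, 2.70, 0.875 and 3.35 CPM in AL and 0.495, 1.07, 1.11 and 0.777 CPM in CR. The 2 high AL libraries, replicates 2 and 4, were above all others, while replicate 3 lay among the CR libraries and replicate 1 just below them. With 6 to 66 counts per library, the log2 fold change of -1.10 (SE 0.61) was less than 2 of its standard errors from 0 and was not called. Without AL replicate 4 it was -0.65.

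Pcolce (gene ID 18542; chr5:137605103-137613784, minus strand) encodes an enhancer of the protease that removes the C-terminal propeptide. Its level was 5.70, 5.03, 11.0 and 4.46 CPM in AL and 6.72, 3.08, 2.23 and 2.0 CPM in CR. CR replicate 1 lay above 3 of the 4 AL libraries, while the other CR libraries lay below all of them. The means were 6.55 ± 3.01 and 3.51 ± 2.19 CPM (SD, n = 4), with a log2 fold change of -0.90 (SE 0.43, not called) that was -0.54 without AL replicate 3 and -1.41 without CR replicate 1. Fbxo24 on the same strand and Gm36266 on the other overlap its exons, so its counts are uncertain.

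Lox (gene ID 16948; chr18:52516067-52529867, minus strand) and Loxl1 (gene ID 16949; chr9:58287738-58313186, minus strand) encode lysyl oxidases, which oxidise lysines so that chains crosslink. Lox acts on collagen and elastin, and Loxl1 is best known for elastic fibres. The Lox level was 0.385, 0.429, 1.46 and 0.710 CPM in AL and 1.77, 1.89, 1.36 and 0.555 CPM in CR, from 5 to 32 counts. The mean was higher in CR, the opposite of the chains, but the groups overlapped, since AL replicate 3 was above 2 CR libraries and CR replicate 4 was below 2 AL libraries. The log2 fold change was 0.90 (SE 0.58, not called), and it was 1.42 without AL replicate 3. A gene on the other strand overlaps a Lox exon. The Loxl1 level was 2.85, 1.90, 1.31 and 2.38 CPM in AL and 1.41, 1.30, 1.11 and 1.61 CPM in CR, also overlapping, with a log2 fold change of -0.63 (SE 0.40, not called).

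The balance of Lox to the type I chain differed more than Lox itself. Lox had 0.031, 0.029, 0.060 and 0.032 counts per Col1a1 count in AL and 0.556, 0.744, 0.423 and 0.141 in CR. The groups did not overlap, a description that rests mainly on the Col1a1 counts.

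Sparc (gene ID 20692; chr11:55394500-55423183, minus strand) encodes osteonectin, a glycoprotein that binds collagen during fibril assembly. Its level was 40.1, 38.9, 56.7 and 36.7 CPM in AL and 30.7, 18.9, 28.2 and 15.5 CPM in CR. All CR libraries were below all AL libraries, and AL replicate 3 stood above the other AL libraries. The mean was 1.85-fold lower in CR, 23.3 ± 7.27 against 43.1 ± 9.18 CPM (SD, n = 4), a smaller ratio than for the called chains (log2 fold change -0.88, SE 0.24, not called). DESeq2 and the fit without a filter on low counts did call it.

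Ordered by mean CPM in AL, the levels ran from Col1a2 (55.4), Sparc (43.1), Col3a1 (36.6) and Col1a1 (18.3) through Pcolce (6.55), Col5a1 (5.67) and Col5a2 (4.19) to Loxl1 (2.11), Serpinh1 (1.85) and Lox (0.746). Neighbours in that order had overlapping libraries, except for the pairs Col3a1 and Col1a1, Col1a1 and Pcolce, and Col5a2 and Loxl1. In CR the order began with Col1a2 (27.6) and Sparc (23.3) and continued with Col3a1 (5.28), Pcolce (3.51) and Col1a1 (3.22). AL replicate 4 held the highest value of its group for 5 of the 10 genes and AL replicate 3 for 4, while AL replicate 1 held the lowest for 6. Among the CR libraries, replicate 4 was highest for 4 genes and lowest for 4.

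The genes around the 10 were taken from a list of collagen synthesis, assembly and breakdown with 64 symbols, of which 63 were in the table and 39 were tested. In CR 27 of these were lower and 12 higher (median of the log2 fold changes -0.34), while 48.9% of all genes were lower. The call was passed by 1 of the 39, against 0.785% of all genes called lower. That gene was Col14a1, a fibril-associated collagen, with 6.86, 7.05, 15.0 and 8.78 CPM in AL and 3.54, 3.02, 3.16 and 3.67 CPM in CR. It fell by 1.49 on the log2 scale (SE 0.29, adjusted p = 0.027, edgeR's quasi-likelihood test). The call was lost without AL replicate 2, AL replicate 3 or CR replicate 1, 2 or 3, after each of which 0 genes of the list were called, with 9 to 11 at an unadjusted p under 0.05.

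**Figure D3:**
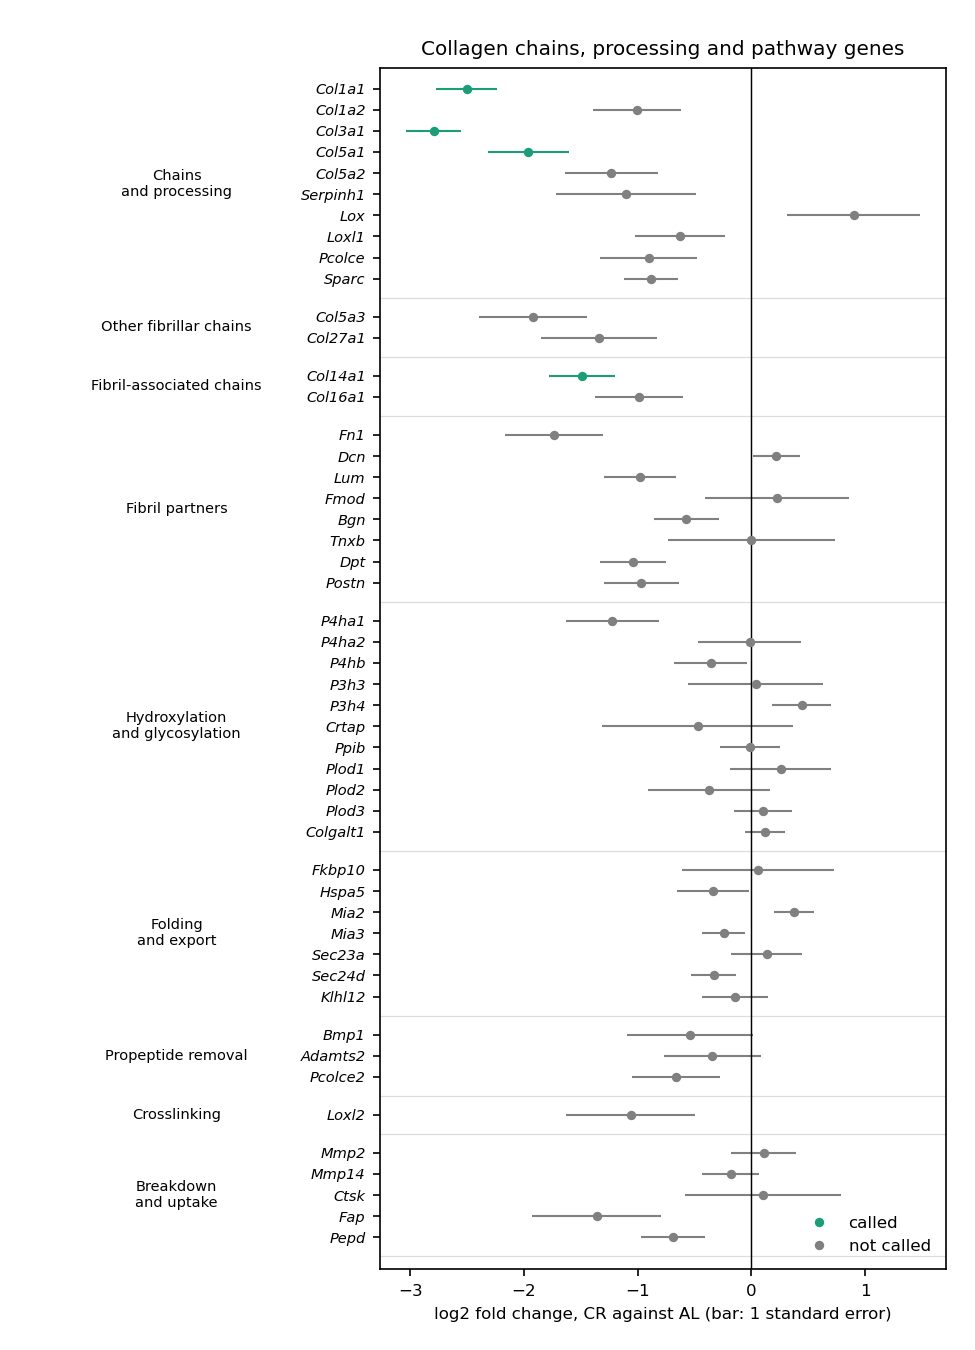
Log2 fold change of CR against AL (points) with 1 SE (bars) for the 10 genes and the 39 tested genes of the list, grouped by role; colour marks genes that were called. Col3a1, Col1a1, Col5a1 and Col14a1 are called and lie left of 0, and the hydroxylation and folding genes lie on both sides of it.

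In 6 of the 39 tested genes every CR library lay below every AL library, against 5.2% of all genes, and in 1 above, against 4.58%. Chains and fibril partners, 12 of the 39, held 5 of these 7 genes. Col5a3, a further type V chain, was at 2.54, 4.17, 5.61 and 3.45 CPM in AL and at 0.283, 0.947, 1.49 and 1.39 CPM in CR. Its groups did not overlap, but its log2 fold change of -1.92 (SE 0.47) missed the threshold at an adjusted p of 0.060 (edgeR's quasi-likelihood test, as for all adjusted p here). Of 8 fibril partners, 6 were lower and 0 were called. Fn1 (fibronectin, on which cells assemble collagen) had -1.74 (adjusted p = 0.061), Dpt (dermatopontin, a fibril-binding protein) -1.04 (adjusted p = 0.092) and Postn (periostin) -0.97 (adjusted p = 0.153), all 3 without overlap. Dcn (decorin, a proteoglycan on the fibril surface and the most counted partner) stood at 109 ± 18.6 CPM in AL against 127 ± 29.0 CPM in CR (SD, n = 4; edgeR adjusted p = 0.663), with overlapping libraries.

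Of 11 hydroxylation and glycosylation genes, 6 were lower and 5 higher and 0 were called (0.785% of all genes were called lower and 1.2% higher, so few calls are to be had among so few genes), with a median log2 fold change of -0.02. P4hb, a subunit of prolyl 4-hydroxylase that also serves as a general disulphide isomerase and is the most counted of them, was at -0.36 (SE 0.32, adjusted p = 0.649). Of 7 folding and export genes, 4 were lower and 0 called, with a median of -0.15. Hspa5, a chaperone for all secreted proteins, was at -0.34 (SE 0.32, adjusted p = 0.665). Mia2, which helps load bulky cargo for export, was the 1 gene of the list with every CR library above every AL library (0.38, SE 0.18, adjusted p = 0.312).

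Propeptide removal, crosslinking and breakdown held 9 tested genes with 0 calls, too few genes to read against those shares. All 3 tested genes of propeptide removal had lower values (median -0.54), Pcolce2, a relative of Pcolce, at -0.66 (adjusted p = 0.438). The 1 tested further crosslinking gene, Loxl2, was at -1.06 (SE 0.57, adjusted p = 0.390). Of 5 breakdown and uptake genes, 3 were lower (median -0.18). Mmp14, a membrane collagenase and the most counted of them, was at -0.18 (adjusted p = 0.794), and Pepd, a cytosolic enzyme that splits proline dipeptides such as those from collagen, was at -0.69 (adjusted p = 0.236) without overlap between the groups.

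Markers of fibroblasts other than collagens were compared with the chains. Of 10 such markers, 8 were lower and 0 were called, with 0 separate between groups and a median log2 fold change of -0.66. Their summed level was 122.5 to 197.1 CPM in AL and 116.3 to 134.1 CPM in CR, most of it from Gsn (gelsolin), which other cells also express. The mean log2 CPM of the chains minus that of these markers was 1.79, 1.71, 1.29 and 2.26 in AL and 0.337, 0.343, 0.165 and 0.695 in CR. The groups did not overlap in this difference, which is a description, since the chains were chosen with their CR against AL values in view.

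**Figure D4:**
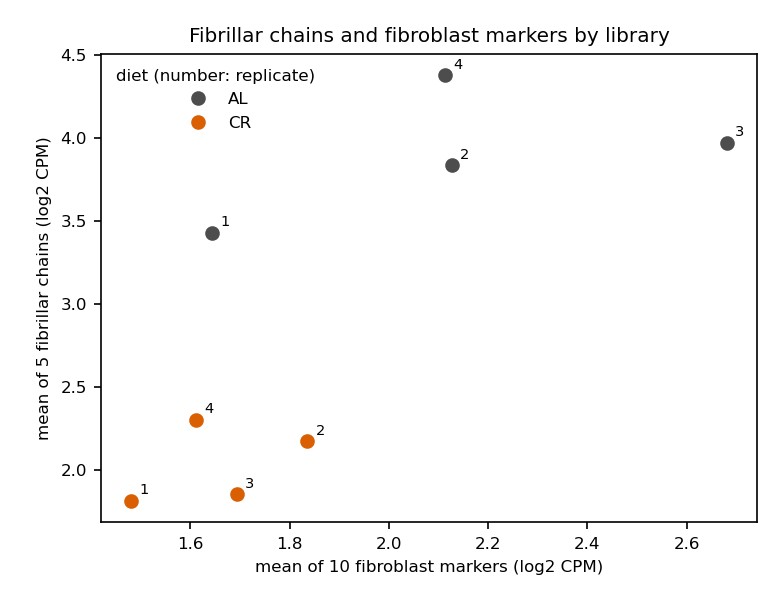
Mean log2 CPM of the 5 chains (vertical axis) against the mean log2 CPM of 10 fibroblast markers that are not collagens (horizontal axis), 1 point per library. The AL libraries lie at 3.43 to 4.38 on the vertical axis and the CR libraries at 1.82 to 2.31, while on the horizontal axis the CR range of 1.48 to 1.84 overlaps the AL range of 1.64 to 2.68.

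Values of other marker lists differed between the diets, mostly without a call, and their part in the chain values was not tested. All 4 markers of myofibroblasts and myoepithelium were lower (median -0.75, summed level 72.3 to 114.6 CPM in AL and 33.7 to 71.4 CPM in CR), as were all 4 of macrophages (median -0.91, 36.1 to 89.9 and 20.4 to 43.8 CPM), with 0 called in either. The 4 tested pericyte markers had higher values (median 0.49), as had 4 of the 5 endothelial markers (median of the 5, 0.44), with 0 called, and the fifth, Tek, was at 0.745 CPM in AL and 0.739 CPM in CR. Lymphocyte markers were too low to test, with summed levels of 1.62 to 7.94 CPM in AL and 0.444 to 1.42 CPM in CR. Skeletal muscle markers summed to 0.797 to 7.32 CPM in AL and 1.63 to 51.1 CPM in CR, and the 2 tested adipocyte markers were higher, with 0 called in either list. Of the 4 genes listed as lacrimal acinar markers, 2 were lower and 2 higher in CR, with a median of 0.14. Their summed level of 12950 to 29746 CPM in AL and 37611 to 84088 CPM in CR came mostly from Car6 (1.68, not called). In which tissue of the sample these transcripts arose was not tested. Pigr was called lower (-0.95, adjusted p = 0.038 by edgeR's quasi-likelihood test), a call that held in 1 of the 8 fits that left out 1 library, the fit without CR replicate 4. No listed marker was at 0 in every library.

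A list of genes known from the neighbouring parotid gland had the largest median of the marker lists. The study treats Prb1, 1 of its genes, as a transcript of the LG. Whether the 6 transcripts came from the LG or from neighbouring tissue was not tested. Each of the 6 had a higher value in CR (median 4.84 on the log2 scale), 3 were called (Prb1, Prh1 and Prp2), and the summed level of the 6 was 2018 to 25259 CPM in AL and 19843 to 236897 CPM in CR. Prp2 was called in all 8 fits that left out 1 library and Prb1 in 2 of them, those without AL replicate 4 or CR replicate 4. Prh1 was called in 6, its call being lost without AL replicate 2 or AL replicate 3. The mean log2 level of the 6 was 7.92, 5.61, 6.29 and 3.05 in AL and 12.2, 13.5, 10.6 and 9.93 in CR, without overlap, so it cannot be fully told apart from diet. With this level as a covariate, the log2 fold changes were -1.73 for Col1a1, -2.53 for Col3a1, -1.60 for Col5a1 and -0.91 for Col5a2, and those of Col1a2 (0.89) and Serpinh1 (1.04) changed sign. In the same fit the value of Lox was 0.016, against 0.90 without the covariate, and that of Pcolce was -2.14, against -0.90. In that edgeR fit 0 of all 11211 genes were called, with 1036 at an unadjusted p under 0.05.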

How the data were processed

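Libraries of LG RNA from 4 AL and 4 CR samples were made with QuantSeq 3' mRNA-seq. Per the study's methods and the submitters' processing notes, the authors used cutadapt for trimming, STAR and the mm10 build for alignment, and HTSeq for counting on ROSALIND, and deposited raw counts per gene. They also deposited log2 values scaled by relative log expression (RLE), which were recomputed from the counts to within 0.000124 and not used further. Versions of these tools are not given in the sources used here. Reads shared with overlapping genes could change single values.

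From the deposited counts, 5 repeated symbols were dropped, and 11211 genes passed edgeR's filterByExpr. The quasi-likelihood test of edgeR 4.0.16 (R 4.3.3) with RLE factors compared CR with AL without covariates, and p-values were adjusted by Benjamini-Hochberg across the tested table. A call needed both a fold change of 1.5 or more and an adjusted p below 0.05. Each SE was derived from the log2 fold change and its F statistic. Levels are CPM over RLE-scaled library sizes. The fit was tested on simulated data, where it called 100% of the genes changed by a log2 of 2. The changed genes were drawn from well-counted genes, and all genes were given the same dispersion. That share therefore does not give the power in the real data or for genes of few counts. No 2 libraries of a group agreed within sampling noise. Floors cover counting error only.

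The 10 genes, the pathway list and the marker lists were chosen with earlier results of these data known. Named were the 10 genes, pathway genes that were called or did not overlap between diets, the most counted pathway gene of each role, and the 8 genes most like the 10. Alternatives were TMM factors, DESeq2 1.42.0, other filters, a replicate block, leaving out the 50 most counted genes, a parotid covariate, no fold threshold, and leaving out each library. Positions are from GENCODE vM21 (GRCm38), and promoters from RefSeq (GRCm38.p6), which held 6 of the 10 genes. The Col1a2, Pcolce and Sparc promoter windows lie inside the GENCODE spans of these genes.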

Additional observations from a re-analysis of the deposited data

Results flagged for a closer look

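Within each diet, each of the 10 genes was examined for a library far from the other 3 by Dixon's ratio, which made 20 groups of 4 libraries. In 3 of them 1 library stood apart, and chance alone marks about 1 in 20 groups. Col3a1 was at 7.00 CPM in CR replicate 1, against 4.61 to 4.83 CPM in the other CR libraries, and still below all AL libraries. Col5a1 was at 0.681 CPM in CR replicate 3, against 1.66 to 1.78 CPM in the others. Sparc was at 56.7 CPM in AL replicate 3, against 36.7 to 40.1 CPM in the others.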

How the results depend on the processing

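Col1a1 and Col3a1 were called under every alternative but the parotid covariate. Across the 8 fits that left out 1 library, 2 to 3 of the 10 genes were called and their median log2 fold change was -1.28 to -0.99. In the same fits, 25 to 247 genes of the whole table were called lower and 35 to 453 higher, with 0 to 3 pathway genes and 1 to 10 marker genes. The highest of these counts came without CR replicate 4. DESeq2 called 305 genes lower and 399 higher, 4 pathway genes and 11 marker genes, and the fit with no filter on low counts called 165, 271, 3 and 8. Marker calls were 2 with at least 10 counts in every library (8 of the 10 genes tested) and 2 with the 50 most counted genes left out. With the parotid covariate, edgeR called 0 genes lower, 0 higher, 0 of the 10, 0 pathway genes and 0 markers. At an unadjusted p under 0.05 there were 1036 genes, 4 of the 10, 2 pathway genes and 3 markers. The log2 fold changes of Col1a2 (0.89) and Serpinh1 (1.04) then had the opposite sign, and the cause was not tested.

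AL and CR libraries share replicate numbers, but nothing in the labels pairs them. Deviations of same-numbered libraries from their group means correlated at 0.149, 0.079, 0.244 and 0.462, and a library correlated best with its own number in 3 of 4 cases. With a replicate block, 312 genes were called lower and 388 higher, 6 of the 10 (Col1a2, Col5a2 and Sparc added), 5 pathway genes and 10 markers. Serpinh1, Lox and Crtap lie near the floor of 3 counts in some libraries, so differences there were hard to detect at this depth.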

Other observations

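Of 39 further collagen genes by symbol in the table, the fibrillar Col5a3 and Col27a1 and the fibril-associated Col14a1 and Col16a1 among them, 18 were tested. Of these, 17 had a lower value in CR (median -0.96 on the log2 scale), as had 48.9% of all genes tested. In 5 of the 18 every CR library lay below every AL library (5.2% of all genes), and 2 were called lower (0.785% of all genes). Besides Col14a1, Col6a3, a chain of the beaded filaments of type VI collagen, was called, at 6.72 ± 1.23 CPM in AL and 2.78 ± 0.447 CPM in CR (SD, n = 4; log2 fold change -1.27, SE 0.26, adjusted p = 0.033 by edgeR's quasi-likelihood test). Col4a4, a basement membrane chain, was the 1 with a higher value (1.10). Both were named after their values were seen.

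The genes whose log2 levels were most like the centred mean of the 10 over the 8 libraries were Slco3a1 (Pearson r 0.976), C1qtnf1 (0.954), Wls (0.952), Naa38 (0.948), Slc30a1 (0.947), Htra1 (0.944), Rinl (0.943) and Marcks (0.940). All 8 had lower fitted values in CR, with log2 fold changes from -1.80 for Slco3a1 to -0.32 for Naa38. The libraries form 2 diet groups, which the correlations over all 8 share. Over the 4 AL libraries alone r was 0.557 to 0.911 for the 8 genes, and over the 4 CR libraries alone it ran from -0.543 for Htra1 to 0.788 for Rinl. Slc30a1 (0.818 and 0.754) and Rinl (0.782 and 0.788) had high values in both. These are descriptions.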
